A study of Homo sapiens with 9 samples.

Results

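The neuronal intermediate filament genes are NEFL, NEFM, NEFH, INA, PRPH and NES, 6 of the 61487 gene identifiers in the count tables. They were picked by gene name and were chosen by measured values as well: their counts across the doses and across the replicate numbers were known when the group was drawn up. Their levels across doses and replicate numbers are therefore given as a description, and where a fit over all genes is counted for them, nothing is read from that count. The cells were SH-SY5Y, derived from a human neuroblastoma and resembling young sympathetic neurons, so every library came from 1 line. All cells were kept for 72 h in medium with fetal bovine serum and either vehicle (0 µM), 10 µM citrinin or 20 µM citrinin, a toxin made by moulds. RNA-seq of total RNA gave 9 libraries, 3 for each dose, numbered replicate 1, 2 and 3 within each dose. Whether a replicate was a culture of its own is not given in the labels, so every spread below is that between these libraries and may be partly technical.

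Intermediate filaments are rope-like polymers that give a cell mechanical strength, and neurons build theirs from a set of related proteins. NEFL, NEFM and NEFH encode the light, medium and heavy neurofilament subunits; the light chain forms the core of the filament, and the medium and heavy chains add long side arms that set axon calibre. INA encodes alpha-internexin, which appears early in neuronal development, PRPH encodes peripherin, which is typical of peripheral and sympathetic neurons, and NES encodes nestin, the filament protein of dividing neural progenitors. In development nestin gives way to the neuronal subunits as cells leave the cell cycle.

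The 250 bases before the start of transcription are shown for the 3 members with an entry in the RefSeq promoter table used here (GRCh38.p14). They are background, and the part of these sequences in the levels was not tested. Each window runs 5′ to 3′ on the strand of the gene. Capitals mark matches to 3 short motifs, searched on both strands: the TATA box TATAAA, the GC box GGGCGG (written CCGCCC where it lies on the other strand) and the E-box CAGCTG.
INA, chr10:103276888-103277137, plus strand: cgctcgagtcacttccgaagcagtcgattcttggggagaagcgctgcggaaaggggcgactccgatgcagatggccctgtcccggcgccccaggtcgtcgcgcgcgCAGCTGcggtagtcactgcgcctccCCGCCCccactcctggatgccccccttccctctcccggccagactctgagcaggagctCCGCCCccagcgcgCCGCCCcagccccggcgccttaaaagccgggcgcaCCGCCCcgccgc
PRPH, chr12:49294897-49295146, plus strand: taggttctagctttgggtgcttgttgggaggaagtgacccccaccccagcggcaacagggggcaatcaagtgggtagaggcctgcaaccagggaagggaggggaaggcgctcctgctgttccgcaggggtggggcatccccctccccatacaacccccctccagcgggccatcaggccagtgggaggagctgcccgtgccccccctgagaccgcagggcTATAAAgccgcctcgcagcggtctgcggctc
NES, chr1:156677408-156677657, minus strand: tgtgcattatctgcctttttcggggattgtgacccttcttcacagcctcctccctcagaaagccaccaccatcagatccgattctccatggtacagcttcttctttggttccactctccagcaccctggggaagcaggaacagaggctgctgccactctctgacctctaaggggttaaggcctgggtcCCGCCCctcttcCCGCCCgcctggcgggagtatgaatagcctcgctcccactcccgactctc

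The INA window held 4 GC boxes and 1 E-box, and 72.8% of its bases were G or C. The NES window held 2 GC boxes and was 58% G or C, which was also the median over all promoters in the table. The PRPH window was 66.8% G or C and held 1 TATA box, 31 bases before the start. Of the 35116 promoters in that table, 10.7% held TATAAA, 42.6% held GGGCGG and 13.99% held CAGCTG in a window of the same length. No motif was shared by all 3 windows. The PRPH window lies inside the gene as GENCODE draws it, which also counts transcripts that start further upstream.

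In GENCODE 29 on GRCh38, INA (ENSG00000148798) occupied 103277163 to 103290351 of chromosome 10 on the plus strand, and PRPH (ENSG00000135406) occupied 49293252 to 49298686 of chromosome 12 on the plus strand. NES (ENSG00000132688) occupied 156668763 to 156677397 of chromosome 1 on the minus strand, and NEFH (ENSG00000100285) occupied 29480230 to 29491390 of chromosome 22 on the plus strand. All 6 members are protein-coding.

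NEFL (ENSG00000277586) and NEFM (ENSG00000104722) are neighbours on chromosome 8, where NEFM runs on the plus strand at 24913012 to 24919098 and NEFL on the minus strand at 24950955 to 24957110. Their ends lie 31856 bases apart. The exons of NEFL, NEFM, NEFH and PRPH overlap annotated antisense genes, and the counts used here did not separate the strands.

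Reads assigned to genes came to 15678443 to 19604367 per library, and 3 reads were worth 0.153 to 0.191 CPM (read counts scaled to library size, with TMM factors of 0.990 to 1.013). All 12 sympathetic neuroblast markers were detected widely enough to be tested, and they summed to 2518 to 3936 CPM per library: HAND2 and GATA3, transcription factors of sympathetic neuroblasts, ran between 805 and 1204 CPM and between 173 and 292 CPM. Mesenchymal or substrate-adherent markers summed to 4006 to 6374 CPM. Most of that sum in every library was 1 gene, FN1, at 2447 to 4094 CPM, so it is not a level shared by the whole list. Glial and Schwann cell markers summed to 6.54 to 9.98 CPM and epithelial markers to 10.6 to 14.8 CPM, with CDH19 and KRT5 at 0 reads in every library. Mitochondrially encoded genes took 11.9% to 12.4% of gene reads in the replicate 1 libraries, against 10.6% to 11.8% in replicate 2 and 10.3% to 11.3% in replicate 3.

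NES was the most abundant member in every library per length. Its level stood at 259.9, 299 and 294 CPM in vehicle replicates 1, 2 and 3, at 243, 335 and 298 CPM in the 10 µM libraries in the same order, and at 274, 321 and 293 CPM in the 20 µM libraries. The 3 dose groups overlapped, and replicate 1 was the lowest library at each dose by a modest margin. Group means were 284 ± 21.3 CPM in vehicle, 292 ± 46.7 CPM at 10 µM and 296 ± 23.7 CPM at 20 µM (SD, n = 3 each).

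NEFL, the core subunit, behaved differently from NES across the libraries. It stood at 27.4, 149 and 120.2 CPM in vehicle replicates 1, 2 and 3, at 27.6, 144 and 120.4 CPM at 10 µM, and at 26.3, 134 and 117 CPM at 20 µM. These values rest on 436 to 478 reads in the replicate 1 libraries and on 2050 to 2619 reads in the other 6. Replicate 1 was far below replicates 2 and 3 at every dose, whereas the 3 doses overlapped almost completely. The SD within a dose was accordingly large beside the mean, at 98.7 ± 63.4 CPM in vehicle, 97.4 ± 61.6 CPM at 10 µM and 92.5 ± 58.1 CPM at 20 µM (n = 3 each).

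NEFM, the medium chain, followed NEFL. Its levels were 22.6, 109.7 and 94.1 CPM in vehicle replicates 1, 2 and 3, then 22.5, 99.6 and 85.2 CPM at 10 µM, and 21.1, 93.1 and 82.6 CPM at 20 µM. Replicate 1 was again the low library of each dose, and within every replicate number the 20 µM library was the lowest of the 3. Means were 75.5 ± 46.4 CPM in vehicle, 69.1 ± 41.0 CPM at 10 µM and 65.6 ± 38.9 CPM at 20 µM (SD, n = 3 each).

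NEFH, the heavy chain, had a narrower gap between replicate numbers. It measured 38.8, 93.1 and 92.4 CPM in vehicle replicates 1, 2 and 3, next 38.0, 92.9 and 84 CPM at 10 µM, and 39.5, 95.2 and 80.1 CPM at 20 µM. Replicate 1 was below all other libraries, and the doses within a replicate number differed little, with replicate 3 at 20 µM the lowest of the other 6 libraries. Means were 74.8 ± 31.1 CPM in vehicle, 71.7 ± 29.5 CPM at 10 µM and 71.6 ± 28.8 CPM at 20 µM (SD, n = 3 each).

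INA, encoding alpha-internexin, had 27.3, 80.1 and 61.2 CPM in vehicle replicates 1, 2 and 3, with 27.6, 80.8 and 68.2 CPM at 10 µM and 25.4, 72.4 and 52.5 CPM at 20 µM. The 20 µM library was the lowest of its replicate number in 3 of 3, and the dose groups still overlapped because replicate 1 lay below every other library. Means were 56.2 ± 26.8 CPM in vehicle, 58.9 ± 27.8 CPM at 10 µM and 50.1 ± 23.6 CPM at 20 µM (SD, n = 3 each).

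PRPH, the peripherin gene, was close to the limit of detection. It had 2, 30 and 20 reads in vehicle replicates 1, 2 and 3, then 1, 24 and 13 reads at 10 µM, and 9, 21 and 15 reads at 20 µM. In CPM these were 0.117, 1.70 and 1.17 in vehicle, 0.0577, 1.55 and 0.664 at 10 µM, and 0.542, 1.20 and 0.855 at 20 µM. Vehicle replicate 1 and the 10 µM replicate 1 were under 3 reads, so the ratio of PRPH between doses within replicate 1 cannot be read at this depth. Replicate 1 was the lowest library at each dose for PRPH too.

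**Figure D1:**
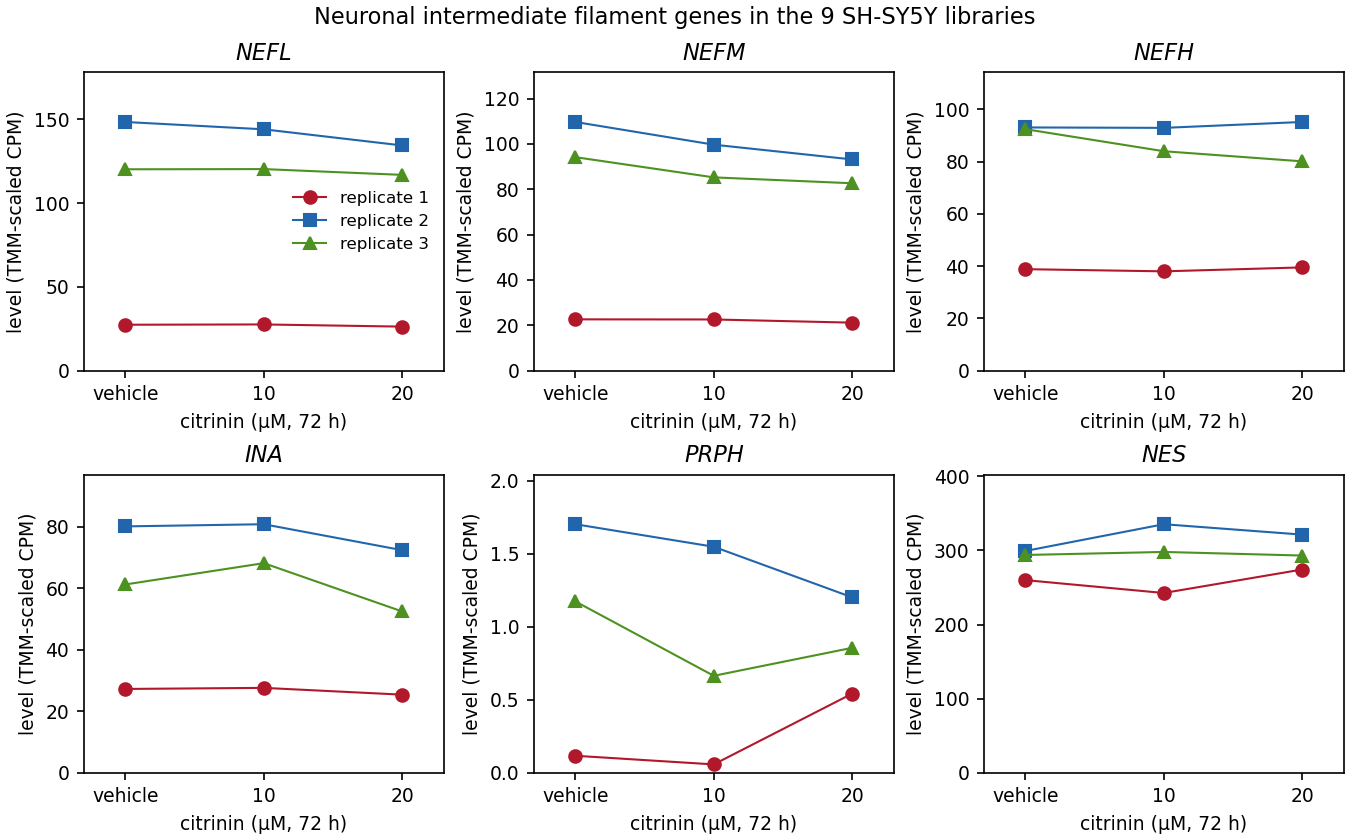
Level of each gene (TMM-scaled CPM, vertical axes starting at 0) against citrinin dose (vehicle, 10 and 20 µM, 72 h); each point is 1 of the 9 libraries and lines join libraries with the same replicate number. Except for PRPH, which rests on 1 to 30 reads, most lines look close to flat across doses on these axes. The larger steps include INA in replicate 3 (68.2 CPM at 10 µM, 52.5 CPM at 20 µM) and NEFM in replicate 2 (109.7 CPM in vehicle, 93.1 CPM at 20 µM). NES in replicate 2 stepped upwards (299 CPM in vehicle, 335 CPM at 10 µM). Replicate 1 lies well under replicates 2 and 3 for NEFL (26.3 to 27.6 CPM against 117 to 149 CPM), NEFM, NEFH and INA, and only slightly under them for NES.

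The dose comparisons asked whether citrinin shifted these transcripts in a neuron-like line. At 20 µM against vehicle the differences of the neurofilament, INA and NES transcripts were small: with the replicate number as a block, the log2 fold change was −0.09 ± 0.05 (SE) for NEFL, −0.19 ± 0.06 for NEFM, −0.06 ± 0.06 for NEFH, −0.16 ± 0.06 for INA and 0.06 ± 0.05 for NES. PRPH had −0.05 ± 0.47, too wide to place. NEFM was lower at 20 µM in 3 of 3 same-numbered pairs, with log2 differences of −0.10, −0.24 and −0.19 in pairs 1, 2 and 3. NEFL and INA were also lower in 3 of 3. The share of all tested genes lower in 3 of 3 pairs is not given here, so nothing is read from these counts of pairs. The 95% interval of the ratio of 20 µM to vehicle, not adjusted for the number of genes, was 0.786 to 0.983 for NEFM. The adjusted p of NEFM was 0.102 in edgeR's blocked test. For NEFL the interval was 0.851 to 1.04, for NEFH 0.859 to 1.08 and for INA 0.790 to 1.01. NES had 0.946 to 1.15 and PRPH 0.387 to 2.40. These intervals use 4 degrees of freedom and are wider than edgeR's test implies. For INA that test gave an unadjusted p of 0.0189 (adjusted p = 0.252), although the interval reaches past 1. The dose values were known when the genes were picked, so nothing is read from whether an interval includes 1.

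At 10 µM against vehicle the log2 fold changes were −0.01 ± 0.05 for NEFL, −0.11 ± 0.06 for NEFM, −0.06 ± 0.06 for NEFH, 0.07 ± 0.06 for INA and 0.03 ± 0.05 for NES, with −0.44 ± 0.47 for PRPH. Between the doses, 20 µM over 10 µM gave −0.23 ± 0.06 for INA, which was lower at 20 µM in 3 of 3 pairs. The unadjusted 95% interval of its ratio was 0.754 to 0.966, with an adjusted p of 0.130 in edgeR's blocked test. NEFL (−0.07 ± 0.05) and NEFM (−0.08 ± 0.06) were lower in 3 of 3 pairs as well. NEFH (0.00 ± 0.06) and NES (0.03 ± 0.05) were mixed, and PRPH had 0.39 ± 0.48. Nothing is read from these counts of pairs either. The 3 comparisons share libraries, since each dose enters 2 of them. In bulk RNA, fewer cells of a type cannot be told apart from less RNA per cell.

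None of the 6 members passed an adjusted p of 0.05 in any dose comparison, in edgeR's quasi-likelihood test with Benjamini-Hochberg adjustment over 17806 tested genes, with or without the block. The background was 0% of tested genes in all 3 comparisons without the block (0 genes, though 387, 115 and 210 had an unadjusted p below 0.05 at 20 µM against vehicle, 10 µM against vehicle and 20 µM against 10 µM; DESeq2 called 11, 0 and 0, and limma 0 in each). With the block it was 2.21% at 20 µM against vehicle, 0.0337% at 10 µM against vehicle and 0.444% at 20 µM against 10 µM. Since the values at each dose were known when the genes were picked, nothing is read from this count, and a p that misses the threshold does not show that the levels were equal. The count of 0 depended on replicate 1: without 20 µM replicate 1, 1 member passed at 20 µM against vehicle (NEFM, log2 fold change −0.20) and 1 at 20 µM against 10 µM (INA, −0.26) in the blocked fit. NEFM also passed at 20 µM against vehicle without all 3 replicate 1 libraries (−0.21). When libraries were left out, the counts over all genes moved widely as well (given at the end), so nothing is read from these passes.

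**Figure D2:**
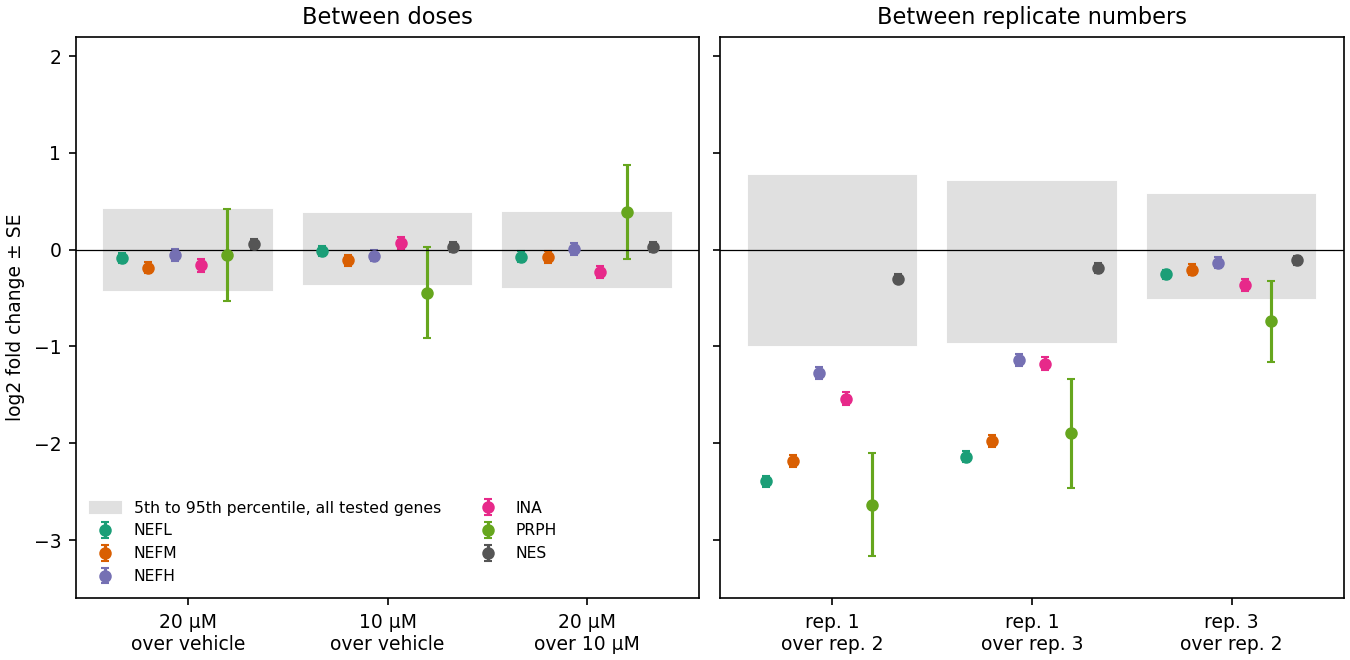
Log2 fold change with its standard error for each of the 6 genes in the 3 dose comparisons (left, replicate number as a block) and between replicate numbers (right, dose as a term); grey boxes span the 5th to 95th percentile of all 17806 tested genes. All dose values except those of PRPH lie within 0.23 log2 units of 0, and NEFL reaches −2.39 in replicate 1 over replicate 2.

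Between replicate numbers the same genes differed by far more. With dose as a term, NEFL was 5.26-fold lower in replicate 1 than in replicate 2 (log2 fold change −2.39 ± 0.06, SE), NEFM 4.56-fold lower (−2.19 ± 0.06), NEFH 2.42-fold lower (−1.27 ± 0.06) and INA 2.91-fold lower (−1.54 ± 0.07). PRPH was 6.21-fold lower (−2.63 ± 0.53), from 12 reads over the 3 replicate 1 libraries against 75 over the 3 replicate 2 libraries. NES was 1.23-fold lower (−0.30 ± 0.05). Folds at least as large in either direction were found in 1.06% of tested genes for NEFL, 1.33% for NEFM, 0.781% for PRPH, 3.32% for INA, 4.94% for NEFH and 39.8% for NES.

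Replicate 1 over replicate 3 gave a similar order, with log2 fold changes of −2.14 ± 0.06 for NEFL, −1.98 ± 0.06 for NEFM, −1.90 ± 0.56 for PRPH, −1.18 ± 0.07 for INA, −1.14 ± 0.06 for NEFH and −0.19 ± 0.05 for NES. Replicate 3 over replicate 2 gave small values, at −0.26 ± 0.05 for NEFL, −0.21 ± 0.05 for NEFM, −0.13 ± 0.06 for NEFH, −0.36 ± 0.06 for INA, −0.74 ± 0.42 for PRPH and −0.11 ± 0.05 for NES. Replicate 2 was thus the highest on average for all 6 genes. These 2 contrasts and the first share their libraries pairwise.

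The adjusted p was below 0.05, always with the lower level in the first-named replicate, for 6 of 6 members in replicate 1 against replicate 2, where 19.4% of all tested genes were called lower and 17.4% higher. It was 6 of 6 in replicate 1 against replicate 3 (19.3% of genes lower, 17.9% higher) and 3 of 6 in replicate 3 against replicate 2, namely NEFL, NEFM and INA (5.88% lower, 5.86% higher). Since the replicate values were known when the genes were picked, nothing is read from these counts. What the replicate numbers stand for is not given in the labels.

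Split by sums of squares of log2 CPM, the replicate number accounted for 99.9% of the variation of NEFL over the 9 libraries, 99.4% for NEFM, 99.2% for NEFH, 97.6% for INA, 82.2% for NES and 79.3% for PRPH. Dose accounted for 0.113% for NEFL, 0.514% for NEFM, 0.197% for NEFH, 1.93% for INA, 3.09% for NES and 5.37% for PRPH. The medians over all tested genes were 55.1% for the replicate number and 11.4% for dose. Each of these shares holds noise between libraries, so they do not measure how large a dose effect was.

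Levels of different genes were compared per length, as RPKM (CPM per kilobase of the union of annotated exons). The summed RPKM of the 6 genes was 73.8 to 78.7 in the replicate 1 libraries, 158 to 166 in replicate 2 and 136 to 146 in replicate 3. NES made up 59.2% to 62.7% of that sum in replicate 1, against 33.03% to 36.6% in replicate 2 and 36.3% to 38.7% in replicate 3. NEFL made up 7.71% to 8.63% in replicate 1, against 19.7% to 21.0% in replicate 2 and 19.1% to 19.8% in replicate 3. The share of NEFH was nearly level, at means of 13.4% in replicate 1, 15.3% in replicate 2 and 15.9% in replicate 3.

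The order of the genes changed with the replicate number. In replicate 1 the mean RPKM ran NES 46.6 ± 2.86, NEFH 10.3 ± 0.20, INA 8.29 ± 0.37, NEFL 6.25 ± 0.16, NEFM 5.04 ± 0.19 and PRPH 0.055 ± 0.061 (SD over the 3 doses), with no overlap between neighbours. In replicate 2 NEFL was second at 32.9 ± 1.66 RPKM, after NES at 57.3 ± 3.27, and NEFH (24.8 ± 0.33), INA (24.1 ± 1.45) and NEFM (23.0 ± 1.90) overlapped each other. Replicate 3 had NES at 53.1 ± 0.47 and NEFL at 27.5 ± 0.45 RPKM, then NEFH (22.6 ± 1.67), NEFM (19.9 ± 1.38) and INA (18.8 ± 2.44), neighbours that overlapped. PRPH was last in all 3.

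Ratios of transcript levels within a library are given as a description. NEFM over NEFL, in RPKM, was 0.795 to 0.815 in replicate 1, against 0.683 to 0.774 in replicates 2 and 3. NEFH over NEFL was 1.58 to 1.72 in replicate 1, against 0.717 to 0.880 in replicates 2 and 3. NES over NEFL was 6.85 to 8.13 in replicate 1, against 1.57 to 1.95 in replicates 2 and 3. INA over NEFL was 1.30 to 1.34 in replicate 1, against 0.601 to 0.759 in replicates 2 and 3. Between replicate numbers, the NEFM to NEFL transcript ratio thus moved less than the ratios of NEFH, INA and NES to NEFL. Protein was not measured here, and the replicate values were known when the genes were picked.

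**Figure D3:**
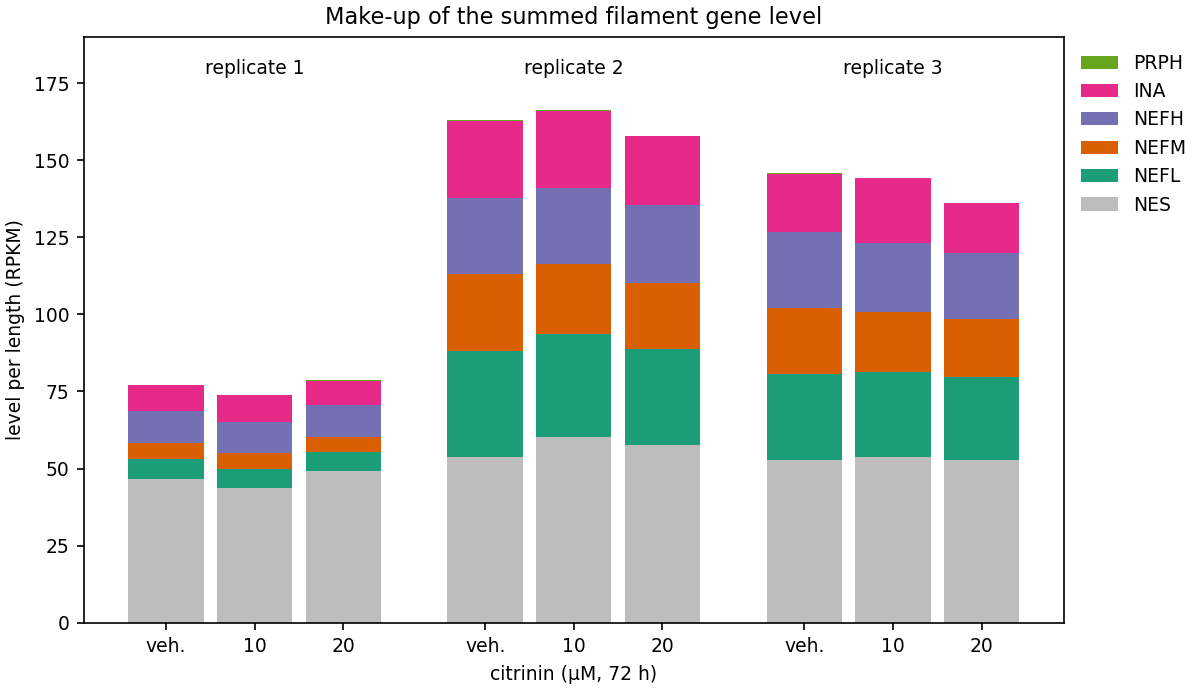
Level per length (RPKM, stacked, axis from 0) of the 6 genes in each of the 9 libraries, ordered by dose (vehicle, 10 and 20 µM) within replicates 1, 2 and 3. The grey NES segment is of similar height throughout (43.6 to 60.3 RPKM), and the coloured neurofilament and INA segments are short in replicate 1; PRPH is too low to see.

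The way reads were counted bears on the level of NEFM more than on its differences between libraries, and for PRPH it bears on both. The joint count leaves out reads that fall on 2 overlapping genes. The sum of the 2 single-strand counts keeps many of them and can give the same read to both genes. Reads on the 2 strands were nearly equal in every library (ratio 0.981 to 0.993), so the libraries did not preserve strand. Whether the added reads came from a member or from the gene overlapping it cannot be told. The strand sum was higher than the joint count by 26.6% for NEFM in replicate 1, 24.4% in replicate 2 and 22.8% in replicate 3. For PRPH it was higher by 225%, 173% and 185% in replicates 1, 2 and 3, for INA by 9.28%, 8.31% and 10.1%, for NEFH by 3.89%, 4.0% and 5.06%, and for NEFL by under 1% in each. Single libraries of PRPH differed more. In replicate 1 its joint and summed reads were 2 and 8 in vehicle, 1 and 11 at 10 µM, and 9 and 20 at 20 µM. The order of vehicle and 10 µM thus turned there. NES gained at most 0.0125%. GENCODE 29 draws no gene over INA, and the annotation behind the counts is not given in the sources used here.

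Levels from the strand sums may include reads of overlapping antisense genes. With the strands summed, NEFM reached 6.38 ± 0.25 RPKM in replicate 1, against 6.30 ± 0.17 RPKM for NEFL, so their order turned there, with a difference smaller than either SD. In replicate 2 NEFM became 28.6 ± 2.47 RPKM and NEFL 33.2 ± 1.59 RPKM. PRPH remained the lowest member, at 0.177 RPKM in replicate 1, 0.929 in replicate 2 and 0.584 in replicate 3. The ratio of summed reads in replicate 2 over replicate 1 was 5.23 for NEFL, 4.45 for NEFM, 2.40 for NEFH, 2.85 for INA, 5.26 for PRPH and 1.22 for NES, close to the folds from the joint counts except for PRPH.

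The genes whose levels most resembled a member's were ranked by Pearson r of log2 CPM over the 9 libraries among 12302 protein-coding genes averaging at least 2 CPM (12303 for PRPH). Since the replicate 1 libraries stand apart from the rest, r over 9 mainly restates that gap, and r over the 6 libraries of replicates 2 and 3 is given beside it. NEFM was the closest gene to NEFL (r = 0.999 over 9 and 0.892 over 6) and the reverse held too. Next for both came SLC5A7, the choline transporter of cholinergic neurons (0.998 and 0.852 with NEFL), and SNAP25, a SNARE protein of synaptic vesicle release (0.997 and 0.922 with NEFL). SLC5A7 averaged 4.76 CPM in replicate 1, against 53.6 CPM in replicate 2 and 43.4 CPM in replicate 3.

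NEFH was closest to SLC5A7 (0.998 over 9 and 0.938 over 6), the glycosyltransferase gene B3GALNT1 (0.998 and 0.953) and NEFM (0.996 and 0.787). INA was closest to PCDH1, a protocadherin gene (0.998 and 0.976), SLC6A2, the noradrenaline transporter (0.997 and 0.965), and NMNAT2, an axonal NAD-synthesizing enzyme (0.996 and 0.964). SLC6A2 averaged 29.6 CPM in replicate 1, against 87.4 CPM in replicate 2 and 69.3 CPM in replicate 3. Over 0.95 in the 9 libraries were 432 genes for NEFL, 417 for NEFM, 411 for NEFH and 356 for INA, so a place near the top is not a mark of these genes alone.

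PRPH was closest to RCN2, a calcium-binding protein gene of the endoplasmic reticulum (0.981 over 9 and 0.929 over 6), LRFN2 (0.978 and 0.846) and PNPLA4 (0.975 and 0.885), and NES to MLLT11 (0.979 and 0.973), TMEM200C (0.975 and 0.931) and EMC3, a subunit of the endoplasmic reticulum membrane complex (0.975 and 0.968). Only 22 genes passed 0.95 for PRPH and 15 for NES. MLLT11 averaged 187 CPM in replicate 1, against 262 CPM in replicate 2 and 230 CPM in replicate 3. LRFN2 (1.61 to 4.38 CPM) and TMEM200C (2.02 to 4.83 CPM) were themselves low.

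Among members, r over 9 libraries was at least 0.978 for each pair of NEFL, NEFM, NEFH and INA. Within the 6 libraries of replicates 2 and 3 those pairs ran from 0.711 (NEFL with NEFH) to 0.903 (NEFL with INA). NES with the other members ran from 0.334 (with NEFM) to 0.659 (with INA) over those 6. These are descriptions over few libraries that share doses and replicate numbers.

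Other genes of the filament system were followed from lists, at 20 µM against vehicle with the replicate block, where "rose" and "fell" mean an adjusted p below 0.05 in edgeR. None of these genes passed without the block. Over all tested genes, 0.848% were higher and 1.36% lower by the same rule. Of 13 tested genes of other intermediate filaments (17 listed), 2 rose, 1 fell and 10 did not pass, with a median log2 fold change of 0.08, against −0.00 over all tested genes. LMNA, which encodes the nuclear lamins A and C, rose to 337 ± 28.1 CPM at 20 µM, against 277 ± 24.7 CPM in vehicle (log2 fold change 0.28 ± 0.05, edgeR adjusted p = 0.000451). VIM, which encodes vimentin, rose to 457 ± 83.0 CPM at 20 µM, against 394 ± 62.5 CPM in vehicle (0.21 ± 0.05). LMNB1, which encodes a B-type nuclear lamin, fell to 81.2 ± 5.75 CPM at 20 µM, against 94.8 ± 5.75 CPM in vehicle (−0.22 ± 0.06, SD and n = 3 in each group).

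Proteins that link, modify, remove or move filaments showed little change. Of 13 genes of filament turnover and chaperones, 1 rose: UCHL1, the neuronal ubiquitin hydrolase, stood at 769 ± 21.5 CPM at 20 µM, against 672 ± 56.8 CPM in vehicle (0.20 ± 0.05), and no gene of that list fell. None of 10 tested cytoskeletal linkers, 19 filament kinases and phosphatases and 15 axonal transport motors passed in either direction, and their medians were −0.03, −0.03 and −0.02. Among the genes with the smallest p in these lists were the ankyrin gene ANK2 (−0.21 ± 0.07) and the spectrin gene SPTBN1 (−0.13 ± 0.04), the kinase gene MAPK8 (−0.11 ± 0.05), and the kinesin genes KIF5C (−0.16 ± 0.05) and KLC2 (0.12 ± 0.07).

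Of 11 tested RNA-binding and transcriptional regulators of neuronal genes, 2 fell and none rose (median −0.10). ELAVL4, an RNA-binding protein that stabilizes neuronal mRNAs, fell to 304 ± 88.3 CPM at 20 µM, against 355 ± 119 CPM in vehicle (−0.21 ± 0.05). Its relative ELAVL2 fell to 15.5 ± 3.04 CPM, against 20.9 ± 4.67 CPM in vehicle (−0.42 ± 0.09). Of 12 neuronal differentiation markers 2 fell and none rose (median −0.12): DCX, the microtubule protein doublecortin, by 0.35 ± 0.06 and STMN2, a microtubule regulator of growth cones, by 0.31 ± 0.05 on the log2 scale. Of 8 tested neural progenitor markers 1 fell, MSI2 (−0.21 ± 0.05), and none rose (median −0.18). NES, itself a progenitor marker, was kept out of that list.

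The sympathetic neuroblast list, which also holds STMN2, had 9 of 12 genes lower at 20 µM and none higher (median −0.20). Among them CHGA, a granin of secretory vesicles, fell to 56.7 ± 8.66 CPM at 20 µM, against 74.8 ± 11.8 CPM in vehicle (−0.40 ± 0.06), CHGB fell by 0.31 ± 0.06 and the transcription factor gene TFAP2B by 0.45 ± 0.07 on the log2 scale. In the mesenchymal list, which also holds VIM, 5 of 12 genes rose and none fell (median 0.02), including the hyaluronan receptor CD44 (0.44 ± 0.05), YAP1 (0.32 ± 0.07) and TGFBI (0.41 ± 0.09). None of the 4 tested glial genes (8 listed; S100B 0.47 ± 0.36, ERBB3 0.39 ± 0.36) or the 4 tested epithelial genes (8 listed; CLDN4 0.23 ± 0.13, EPCAM 0.38 ± 0.29) passed, with medians of 0.26 and 0.28. The summed sympathetic markers ran from 2518 to 3592 CPM at 20 µM, against 3040 to 3936 CPM in vehicle, and the summed mesenchymal markers from 4439 to 6374 CPM at 20 µM, against 4013 to 5905 CPM in vehicle. FN1, which makes up most of the mesenchymal sum, was not among the 5 genes that rose. The part of these markers in the values of the filament genes was not tested.

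These list counts moved with the libraries used, as did the counts over all genes. The shares over all tested genes given above are those of the fit on every library. Without all replicate 3 libraries no sympathetic, differentiation or lamin gene passed and 1 mesenchymal gene, CD44, did. Without 20 µM replicate 1, 11 sympathetic genes fell. LMNA missed the threshold only without all replicate 3 libraries. VIM, LMNB1 and UCHL1 were less stable: none of them passed when any single vehicle library was left out. Over the 12 ways of leaving out 1 library or 1 replicate number, the falling sympathetic genes numbered 0 to 11, the falling differentiation markers 0 to 4, the rising mesenchymal genes 1 to 5 and the rising genes of other intermediate filaments 0 to 3. The turnover list had 0 to 2 rising genes, the regulators 0 to 2 falling, the progenitor markers 0 to 2 falling, the linkers 0 to 2 falling, and the kinases and the motors 0 to 1 falling each.

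At 10 µM against vehicle no listed gene passed in any of the 12 lists. At 20 µM against 10 µM, where 0.18% of all tested genes were higher and 0.264% lower, 1 other intermediate filament gene rose (LMNA), 2 differentiation markers fell (DCX and STMN2), 3 sympathetic markers fell (CHGA, STMN2 and TFAP2B) and 1 mesenchymal marker rose (CD44). The other 8 lists had no gene past the threshold there.

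The same lists were set beside the low filament levels of replicate 1, as a description. Over all tested genes, 19.4% were lower and 17.4% higher in replicate 1 than in replicate 2, and 19.3% were lower and 17.9% higher than in replicate 3. Of 12 neuronal differentiation markers, 10 were past the threshold downwards and none upwards in replicate 1 against replicate 2 (median log2 fold change −0.72), and 9 against replicate 3 (−0.44). This was not particular to replicate 1, since 10 of 12 were also lower in replicate 3 than in replicate 2 (−0.39, against 5.88% of all tested genes). Their summed level was 1207 to 1332 CPM in replicate 1, against 1895 to 2206 CPM in replicate 2 and 1479 to 1704 CPM in replicate 3. GAP43 (−2.12 ± 0.09), SNAP25 (−1.80 ± 0.06) and SYP (−1.67 ± 0.08), which serve axon growth and synaptic vesicles, were the largest against replicate 2 and were picked after their values were seen. DCX had −1.47 ± 0.06 and STMN2 −0.42 ± 0.05, while STMN2 had 0.00 ± 0.05 against replicate 3.

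Markers of the sympathetic lineage and of progenitors were more often higher than lower. In replicate 1 against replicate 2, 9 of 12 sympathetic markers were higher and 3 lower (median 0.38), and 5 of 8 progenitor markers were higher and 2 lower (median 0.45). Against replicate 3 these were 9 higher and 2 lower (0.61) and 4 higher and 2 lower (0.27). The summed progenitor markers did not follow these counts, at 606 to 676 CPM in replicate 1, against 657 to 690 CPM in replicate 2 and 686 to 722 CPM in replicate 3. CDH2, the adhesion protein N-cadherin, averaged 217 CPM in replicate 1, against 292 CPM in replicate 2 and 325 CPM in replicate 3, and NOTCH1, a signalling receptor, was also lower in replicate 1 than in both. SOX2, a stem cell factor, averaged 17.5 CPM in replicate 1, against 6.55 CPM in replicate 2 and 6.64 CPM in replicate 3, and all 3 of these genes were picked after their values were seen. Among the sympathetic markers named above, TFAP2B was higher in replicate 1 than in replicate 2 (0.69 ± 0.06), and CHGA (−0.49 ± 0.06) and CHGB (−1.12 ± 0.06) were lower.

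Other intermediate filaments were mixed. Of 13 tested, 2 were higher and 1 lower in replicate 1 than in replicate 2 (median 0.09), and 4 were higher and 6 lower than in replicate 3 (−0.22). KRT19, a keratin picked here after its values were seen, had −1.54 ± 0.39 against replicate 2 and −1.19 ± 0.40 against replicate 3, close to the values of INA, at a mean of 0.551 CPM in replicate 1, against 1.64 CPM in replicate 2 and 1.253 CPM in replicate 3. VIM averaged 494 CPM in replicate 1, against 366 CPM in replicate 2 and 419 CPM in replicate 3. Mesenchymal markers were 9 higher and 1 lower against replicate 2 (0.30), and 6 higher and 5 lower against replicate 3 (0.09). Their sums were 5421 to 5566 CPM in replicate 1, against 4006 to 4439 CPM in replicate 2 and 5903 to 6374 CPM in replicate 3. Most of each sum was FN1, which averaged 3355, 2649 and 3907 CPM in replicates 1, 2 and 3. The part of cell state, depth or mitochondrial share in the replicate 1 values was not tested.

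Set against the shares over all tested genes (19.4% lower and 17.4% higher), the motors had 1 higher and 7 lower of 15 against replicate 2 (median −0.13), the kinases and phosphatases 3 higher and 11 lower of 19 (−0.22), and the linkers 2 higher and 3 lower of 10 (−0.04). KIF5C, a neuronal kinesin heavy chain, had −0.94 ± 0.05 and ANK2 −1.35 ± 0.07, and the dynein chain gene DYNC1I1 had 1.05 ± 0.15. DSP, a desmosomal linker, averaged 2.01 CPM in replicate 1, against 0.0215 CPM in replicate 2 and 1.55 CPM in replicate 3. Turnover genes were 4 higher and 6 lower of 13 (0.04), with the small heat shock protein gene CRYAB at 1.85 ± 0.17, and regulators 1 higher and 5 lower of 11 (−0.07), with ELAVL4 at −0.90 ± 0.05. DYNC1I1, DSP and CRYAB were picked after their values were seen. Glial markers were 0 higher and 1 lower of 4, and epithelial markers 1 higher and 2 lower of 4.

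**Figure D4:**
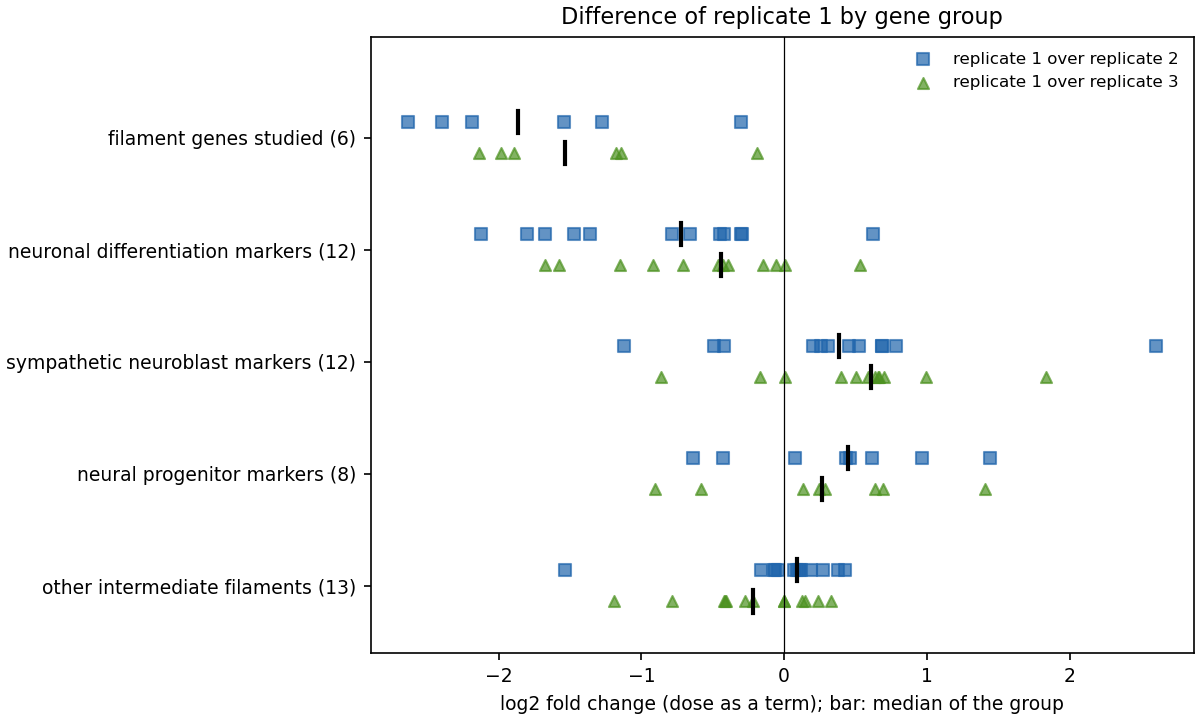
Log2 fold change of replicate 1 over replicate 2 (squares) and over replicate 3 (triangles) for each tested gene of 5 groups, with dose as a term; black bars are group medians and the number tested stands in brackets. The filament genes and the neuronal differentiation markers lie mostly left of 0 (differentiation medians −0.72 and −0.44), and the other 3 groups on both sides of it.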

How the data were processed

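The members and the gene lists were chosen with earlier results of these data known. Per the submitters' processing notes, reads were handled with FastQC, cutadapt, STAR (GRCh38) and edgeR; the sources used here give neither their versions nor the annotation release. Deposited by the authors were raw counts per gene for each library, jointly for both strands and for each strand, and a table of log2 CPM values. Log2 CPM recomputed from the joint counts with TMM factors differed from the deposited log2 values by at most 4.98e-09. Unassigned reads were left out of library sizes, and 76.4% to 78.0% of reads were assigned to genes.

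Gene symbols were matched for 61369 of 61487 identifiers and all 146 listed symbols, in 12 lists. Coordinates and exon lengths come from GENCODE 29, which holds 58312 identifiers, and promoters from RefSeq (GRCh38.p14). INA, PRPH and NES were matched there. All 6 members were among the 17806 genes that passed filterByExpr at its default settings. The planned test was edgeR's robust quasi-likelihood test on 9 libraries in 3 dose groups (R 4.3.3, edgeR 4.0.16), with adjusted p below 0.05 by Benjamini-Hochberg over all tested genes. Its alternatives were a replicate block, DESeq2 1.42.0, limma 3.58.1 on the deposited values, DESeq2 size factors, no filter, and each library left out. The blocked limma fit, replicate numbers left out without the block, the strand sums and the list counts with libraries left out were chosen after seeing the data. The replicate numbers, from the titles, were taken to pair the samples: deviations from the dose means correlated at 0.457 to 0.685 in all 9 same-numbered pairs, against −0.545 to 0.139 in the 18 others, with 0.1 as the limit. Residual degrees of freedom were 6 without and 4 with the block, and intervals use the 4. Libraries of 1 dose all differed by more than sampling noise (lowest chi-square over its degrees of freedom 8.62). CPM is scaled with TMM, and fold changes use edgeR's shrinkage by a small prior count. The scripts were tested on simulated data.

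Members are all named. From each list, up to 4 genes with the smallest p past the threshold at 20 µM against vehicle with the block are named, or the 2 with the smallest p where none passed. Of the genes this rule names, 1 is not reported here. For each member the 3 most alike protein-coding genes are named. Other names were added after their values were seen. The CPM worth of 3 reads covers counting error only, and the intervals of ratios cover the spread between libraries.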

Additional observations from a re-analysis of the deposited data

How the results depend on the processing

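The replicate block set the counts over all genes and changed no call among the members: with it 393 genes passed at 20 µM against vehicle, 6 at 10 µM against vehicle and 79 at 20 µM against 10 µM, against 0 in each without it. Without the block, 6 genes passed at 20 µM against vehicle with no filter on low counts, 11 with DESeq2, and 0 to 1 when libraries were left out. With the block and no filter, 23 genes passed at 10 µM against vehicle and 188 at 20 µM against 10 µM. Leaving out libraries in the blocked fit moved the counts to 48 to 729 at 20 µM against vehicle, 0 to 16 at 10 µM against vehicle and 0 to 301 at 20 µM against 10 µM, and the members past the threshold to 0 to 1 at 20 µM against vehicle and at 20 µM against 10 µM. The cause was not tested. No called value reversed, and the counts of members between replicate numbers stayed at 6, 6 and 3 with DESeq2, DESeq2 size factors and no filter. Depth limits PRPH, at 1 to 30 reads, and replicate 1 stands apart from the other libraries of its dose for NEFL, NEFM, NEFH and INA.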
